A study of Mus musculus with 12 samples.

Results

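The genes described here encode the constitutive proteasome, the protein complex that degrades ubiquitin-tagged proteins in every cell. Members were the rows of the expression table whose symbol is Psma, Psmb, Psmc or Psmd followed by a number, without the inducible catalytic subunits Psmb8, Psmb9 and Psmb10. This gave 36 genes of 55487 rows, 16 of the core particle (Psma and Psmb) and 20 of the regulatory particle (Psmc and Psmd). No member symbol was on more than 1 row. Liver RNA from wild-type Balb/c mice aged 6 weeks had been sequenced in 6 control libraries, numbered 3 to 8, and 6 libraries of severe acute pancreatitis (SAP), numbered 10 to 15. The labels give caerulein, a peptide that drives the exocrine pancreas through the cholecystokinin receptor, as the treatment of the SAP group, and give neither a dose nor a time after treatment. The series' design text speaks of 2 mouse models, and whether all SAP libraries came from 1 model is not given in the labels. The comparison shows how liver transcripts of the complex differed between mice with and without pancreatitis. The labels do not say that each library came from a separate animal, so the p-values measure the spread between these libraries.

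In the 26S proteasome a barrel-shaped core particle is capped by regulatory particles. The barrel has outer rings of alpha subunits, which form the gate, and inner rings of beta subunits, of which Psmb5, Psmb6 and Psmb7 carry the active sites. The regulatory particle binds ubiquitin chains, removes them, and unfolds and feeds in the substrate with a ring of ATPases. Subunits of both particles assemble in fixed proportions with the help of dedicated chaperones. The liver makes and degrades protein at a high rate, and in inflamed tissue interferon-induced subunits can take the places of the catalytic ones.

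Levels are in TPM, a share of each library corrected for transcript length. In SAP 18.5% to 29.97% of that total went to acute-phase genes such as the serum amyloids, against 2.55% to 2.96% in controls, and the sequencing depth is unknown. A gene's TPM therefore also depends on how much of the library the acute-phase transcripts took, and each direction below was recomputed under other scalings. Xist, the RNA that coats the inactive X chromosome, lay between 4.59 and 17.1 TPM in 5 libraries (control 5 and SAP 11, 13, 14 and 15) and between 49.1 and 60.7 TPM in the other 7, so that 1 control and 4 SAP libraries fell on the low side. The defining hepatocyte transcripts were abundant in every library, and the hepatocyte list summed to 100761 to 112770 TPM in controls and 46455 to 63470 TPM in SAP. Within that list Alb (-1.24, log2, SAP minus control), Ttr (-1.23) and Apoa2 (-1.13) were lower. Apoa1 was higher (0.24), and Hnf4a (0.18) was not past the threshold used below. In such bulk tissue, fewer cells of a type and less RNA of these genes per cell cannot be told apart.

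At least 1 TPM in 6 or more libraries was reached by 14 core and 20 regulatory members, and these were tested with limma on log2(TPM + 1) among 11344 genes. In the core particle 5 members were lower in SAP, 0 were higher and 9 were not past an adjusted p of 0.05. Of all genes tested, 25.0% were lower and 19.5% higher. In the regulatory particle 4 members were lower, 1 was higher and 15 were not past the threshold. The lower ones were Psma1, Psma2, Psma3, Psmb3 and Psmb7 in the core and Psmc1, Psmd3, Psmd5 and Psmd14 in the regulatory particle, and the higher one was Psmd8. The differences were small: they ran from -0.48 to 0.10 (log2, SAP minus control) in the core and from -0.58 to 0.19 in the regulatory particle. Only 1 member, Psmd5, differed by 0.5 or more, against 2878 of all genes tested.

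The direction of the family as a whole followed the scaling. The median log2 difference was -0.12 for the core, -0.03 for the regulatory particle and -0.03 for all genes with the values as deposited, and it turned to 0.21 and 0.19 for the particles with quantile normalization, where all genes stood at 0.02. Dividing by the total outside the acute-phase genes moved the median of all genes up by 0.28, to 0.25, with the core at 0.21 and the regulatory particle at 0.28. Relative to all genes the core then lay at -0.04 and the regulatory particle at 0.04. Of all called genes 43.8% were higher with the values as deposited (2211 higher and 2832 lower) and 79.2% outside the acute-phase total (5398 and 1420). The particles' own counts became 10 higher and 1 lower (core) and 12 and 1 (regulatory) with quantile normalization, and 11 and 0 (core) and 16 and 1 (regulatory) outside the acute-phase total. Of all genes 26.0% were higher and 22.8% lower with quantile normalization, and 47.6% and 12.5% outside the acute-phase total. With factors like those of TMM, which trims extreme genes, 0 core members were higher and 2 lower. In the regulatory particle 1 member was then higher (Psmc2, not Psmd8) and 3 were lower. Of all genes 24.0% were higher and 24.1% lower with these factors. Psma3 was the lowest and Psmb6 the highest core member, and Psmd5 the lowest regulatory member, with the values as deposited and in all 25 alternative settings. Psmd8, the highest regulatory member, gave that place to Psmc6 without SAP 14, without SAP 14 and control 5, and in the high Xist libraries alone.

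**Figure D1:**
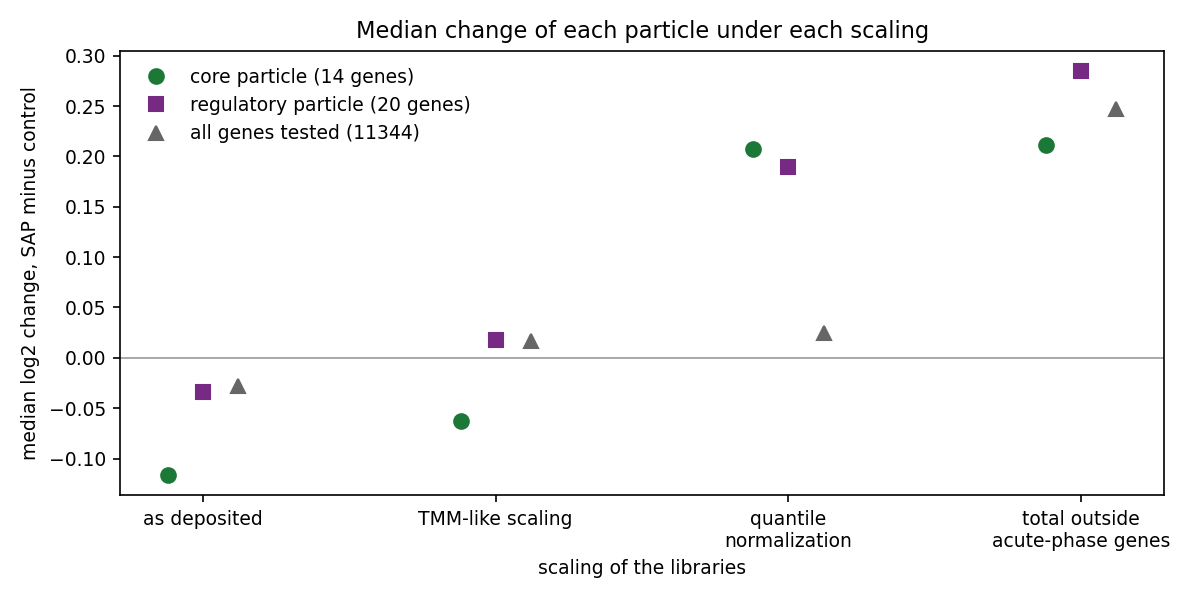
Median log2 difference (SAP minus control, vertical axis) of the 14 tested core members, the 20 regulatory members and all 11344 genes tested, for 4 scalings of the libraries (horizontal axis). The core median is -0.12 as deposited and 0.21 with quantile normalization, so the direction of the family flips with the scaling.

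**Figure D2:**
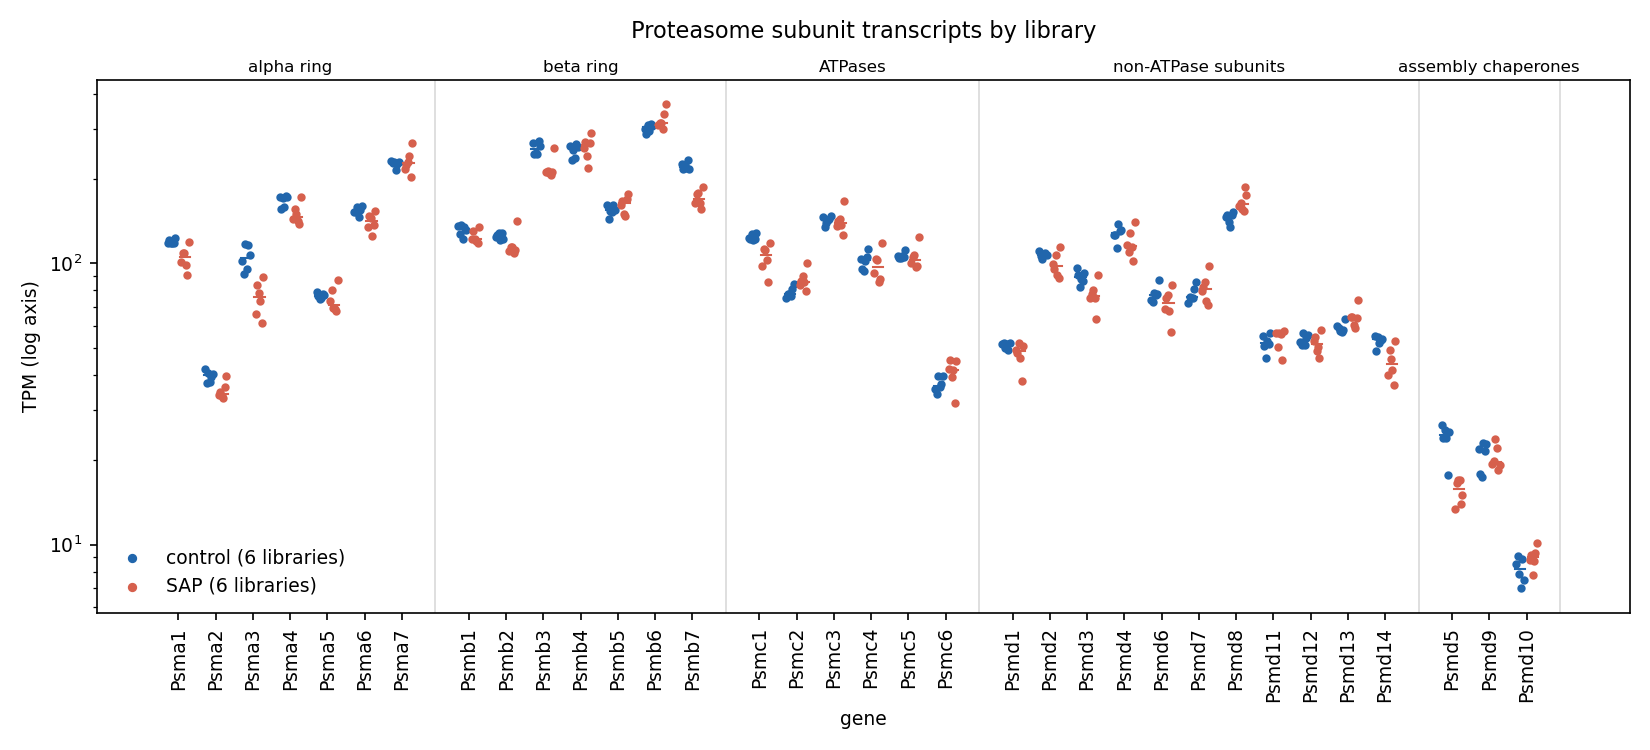
TPM of each tested member (log axis) in the 6 control and 6 SAP libraries, with one point per library and a short line at each group's median. As deposited, the groups do not overlap for Psma3, Psmb7, Psmc1, Psmd5 and Psmd8, while with quantile normalization Psmb7 and Psmc1 differ by only 0.01 and 0.07 and Psmd8 stays higher.

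Promoter letters are shown for 4 of the 9 members lower as deposited and for the catalytic subunits Psmb5 and Psmb6, which were not past the threshold. These are picked examples, each with a motif marked below, and do not stand for the family. Psmd5, with the largest fall, and Psmd8, the only member higher as deposited, hold neither marked motif and are not shown. A RefSeq promoter on GRCm38.p6, from 250 bases before to 50 bases after the start, was matched by symbol for 29 of the 36 members. The 200 bases before the start are printed from 5′ to 3′ on the gene's strand, with capitals at matches of CCAAT, the letters of the CCAAT box bound by NF-Y, or of TGACNNNGC, the core of the antioxidant response element bound by Nfe2l1 and Nfe2l2. Both strands were searched, so that CCAAT also appears as ATTGG. The regions are chr7:114276117-114276316 (minus strand) for Psma1, chr13:14613042-14613241 (plus) for Psma2, chr12:70974423-70974622 (plus) for Psma3, chr2:61711494-61711693 (plus) for Psmd14, chr14:54617996-54618195 (minus) for Psmb5 and chr11:70525157-70525356 (plus) for Psmb6.
Psma1: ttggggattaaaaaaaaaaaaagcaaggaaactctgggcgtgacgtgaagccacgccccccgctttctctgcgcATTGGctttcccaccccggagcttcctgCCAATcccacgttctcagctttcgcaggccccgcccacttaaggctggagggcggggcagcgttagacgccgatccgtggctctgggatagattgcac
Psma2: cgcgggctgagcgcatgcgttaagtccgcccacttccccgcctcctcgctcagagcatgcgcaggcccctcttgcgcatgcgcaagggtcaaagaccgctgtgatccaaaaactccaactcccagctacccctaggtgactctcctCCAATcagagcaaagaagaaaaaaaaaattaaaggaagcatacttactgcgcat
Psma3: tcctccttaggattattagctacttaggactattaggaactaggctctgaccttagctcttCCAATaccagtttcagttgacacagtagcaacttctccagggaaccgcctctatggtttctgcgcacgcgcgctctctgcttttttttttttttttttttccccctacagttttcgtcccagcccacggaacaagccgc
Psmd14: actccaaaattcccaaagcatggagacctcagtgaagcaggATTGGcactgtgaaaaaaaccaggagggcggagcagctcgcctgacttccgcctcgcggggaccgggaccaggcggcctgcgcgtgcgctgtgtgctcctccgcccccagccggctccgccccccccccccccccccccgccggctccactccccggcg
Psmb5: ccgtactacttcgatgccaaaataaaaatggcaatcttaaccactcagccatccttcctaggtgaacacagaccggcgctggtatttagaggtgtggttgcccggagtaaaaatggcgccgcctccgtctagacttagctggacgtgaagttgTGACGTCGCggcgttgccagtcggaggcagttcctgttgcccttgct
Psmb6: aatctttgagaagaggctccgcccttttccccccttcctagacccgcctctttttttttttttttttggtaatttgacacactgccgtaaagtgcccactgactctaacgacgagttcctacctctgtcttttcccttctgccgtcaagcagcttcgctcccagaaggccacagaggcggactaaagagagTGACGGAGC

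CCAAT was found in the full windows of 12 of 29 members and in 41.1% of the 27025 genes with an entry. It was in 6 of the 7 members that were lower as deposited and had a promoter entry (Psma1, Psma2, Psma3, Psmb3, Psmc1 and Psmd14, but not Psmd5). Of those not past the threshold it was in 5 of 20. These classes depend on the scaling. With quantile normalization only Psma3 and Psmd5 were lower, and outside the acute-phase total only Psmd5, which holds no CCAAT. TGACNNNGC was found in Psmb5, Psmb6, Psmc6, Psmd9 and Psmd12, which is 5 of 29 members against 14% of genes, and in 0 of the 7 lower members. The longer TGACTCAGC, which is also a match of TGACNNNGC, was in 0 members and in 0.503% of genes. The ETS motif CCGGAAG was in 10 members against 9.93% of genes, among them 1 lower member, Psmc1. TTCNNNGAA, the spaced palindrome of STAT factors, was in 1 member (Psmd2) against 9.55% of genes. These are matches of letters and were not tested against the differences in level.

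In the alpha ring 3 of 7 tested members were lower as deposited, against 25.0% of all genes tested. Of these 3 only Psma3 was negative under every scaling. Psma3, one of the alpha subunits (GRCm38 chromosome 12, 70974621 to 70996347, plus strand), ranged from 91.7 to 117 TPM in controls (median 104) and from 61.3 to 89.0 TPM in SAP (median 75.9). The groups did not overlap, with SAP 14 lowest and SAP 15 highest of the SAP libraries. Psma3 fell by 0.48 ± 0.10 (log2, SE; adjusted p = 0.00139), and by 0.20 with quantile normalization (adjusted p = 0.0369). Outside the acute-phase total its difference was -0.15 and not past the threshold (adjusted p = 0.124). Psma1 ranged from 118 to 123 TPM (median 118) in controls and from 90.7 to 119 TPM (median 105) in SAP. Only SAP 15 reached the control range, and Psma1 fell by 0.19 (adjusted p = 0.0262). Psma2, the ring's least abundant tested subunit in liver, went from a median of 40.0 TPM (37.4 to 42.0) to 34.4 TPM (33.2 to 39.9), a fall of 0.16 (adjusted p = 0.0391). Again SAP 15 alone lay within the control range. The calls of Psma1 and Psma2 were lost with TMM-like scaling (adjusted p = 0.0937 and 0.301), and outside the acute-phase total both were positive, at 0.13 and 0.16. Psma1 also lost it without control 8, SAP 10 or SAP 13 (adjusted p of 0.0513 to 0.0546), and Psma2 without any one library other than control 4, control 6, SAP 14 or SAP 15 (0.0649 to 0.0855).

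The other alpha subunits were not past the threshold. Psma4 differed by -0.16 (adjusted p = 0.0557), Psma6 by -0.13 (0.0807), Psma5 by -0.05 (0.572) and Psma7 by 0.02 (0.795), and the groups of all 4 overlapped. Without SAP 15 both Psma4 and Psma6 passed, at -0.20 (adjusted p = 0.0139) and -0.16 (0.0433). Psma8, the alpha subunit of the testis proteasome, lay between 0.21 and 1.42 TPM over the 12 libraries and was not tested. The germ cell markers Ddx4, Dazl and Sycp3 summed to at most 0.10 TPM, with Dazl at 0 throughout.

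Of the 3 catalytic subunits 1 fell, against 25.0% of all genes tested, and the other 2 were not past the threshold. Psmb7, the trypsin-like subunit (chromosome 2, 38588036 to 38644087, minus strand), ranged from 217 to 233 TPM in controls (median 221) and from 156 to 187 TPM in SAP (median 169.7). The groups did not overlap, and SAP 14 was lowest and control 7 highest. Psmb7 fell by 0.38 ± 0.06 (log2, SE; adjusted p = 9.63e-05), the smallest p among the members, but stood at 0.01 with quantile normalization (adjusted p = 0.872) and -0.06 outside the acute-phase total (0.298).
Psmb6, the caspase-like subunit and the most abundant member (chromosome 11, 70525367 to 70527858, plus strand), ranged from 287 to 312 TPM in controls (median 304) and from 299 to 368 TPM in SAP (median 314). The groups overlapped, with SAP 13 lowest and SAP 15 highest in SAP, and the difference was 0.10 ± 0.06 (adjusted p = 0.190).
Psmb5, the chymotrypsin-like subunit (chromosome 14, 54614119 to 54618022, minus strand), ranged from 144 to 161 TPM (median 154) and from 147 to 177 TPM (median 163). Its groups overlapped too, and the difference was 0.06 ± 0.06 (adjusted p = 0.403). With quantile normalization the differences of Psmb6 and Psmb5 were 0.45 (adjusted p = 4.78e-05) and 0.41 (3.69e-04).

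A ratio of genes within a library is left unchanged by any factor applied to the whole library. The ratio of Psmb7 to Psmb6 lay between 0.708 and 0.757 in controls (0.737 ± 0.019, SD, n = 6) and between 0.461 and 0.564 in SAP (0.527 ± 0.038, n = 6). The groups were apart, and the 2 SAP libraries with high Xist (0.524 and 0.564) were below every control as well. This pair was not planned: Psmb7 had the smallest p among the members and Psmb6 was the highest core member. The gap between the groups therefore follows from the choice and is no separate evidence. The most abundant tested core subunit, Psmb6, exceeded the least abundant, Psma2, by 7.16 to 7.89 times in controls. In SAP it did so by 9.01 to 9.33 times, also without overlap. This ratio again sets Psmb6 against a member that was lower as deposited, so its gap is no separate evidence either. Within the summed core TPM, Psmb6 took 12.7% to 13.2% in controls and 14.2% to 16.1% in SAP, and Psmb5 6.42% to 6.80% and 6.99% to 8.03%. Psmb7 took 9.20% to 9.73% in controls and 7.41% to 8.27% in SAP, Psmb3 10.5% to 11.3% and 9.58% to 10.3%, and Psma3 4.10% to 4.96% and 2.92% to 3.78%. For these 5 of the 14 tested core subunits the shares of the groups did not overlap. As levels, 15.1% of all genes tested were lower and 10.5% higher without overlap, and shares have no such figure over all genes. Shares of 1 sum are tied, so a fall of some subunits raises the shares of the others.

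**Figure D3:**
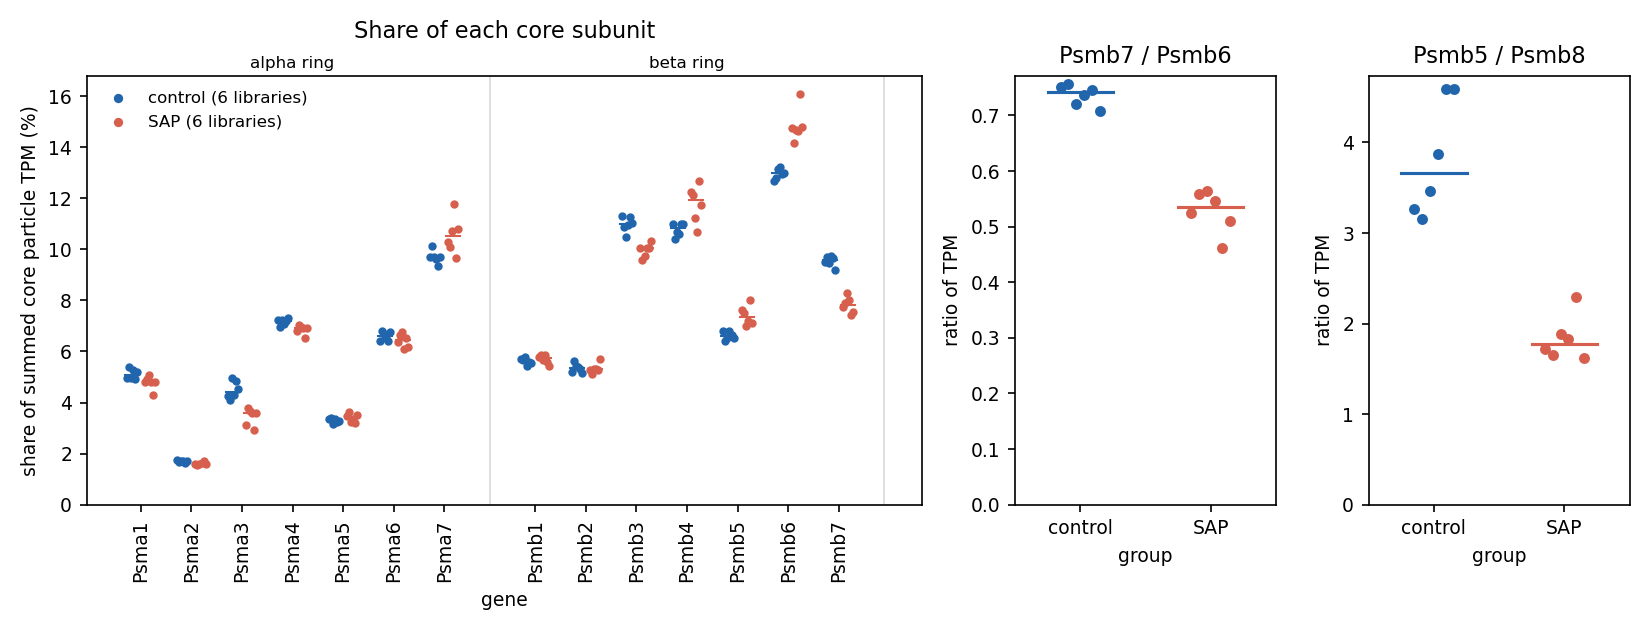
Left, share of the summed core particle TPM taken by each tested core subunit in the 6 control and 6 SAP libraries, with a line at each median. Middle and right, ratios of TPM of Psmb7 to Psmb6 and of Psmb5 to its inducible counterpart Psmb8, where the lines are medians and no SAP library reaches the control range. The pair of Psmb7 and Psmb6 was not planned and joins members at opposite ends of the core differences.

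Of the 4 beta subunits without active sites 1 was lower, against 25.0% of all genes tested. Psmb3, a structural beta subunit, ranged from 243 to 271 TPM in controls (median 254) and from 205 to 257 TPM in SAP (median 211). All SAP libraries but SAP 15 lay between 205 and 213 TPM, below every control, and SAP 15 at 257 TPM was inside the control range. Psmb3 fell by 0.24 ± 0.06 (adjusted p = 0.00895), a call lost with TMM-like scaling (adjusted p = 0.0898) and positive at 0.14 with quantile normalization. Psmb1 differed by -0.07 (adjusted p = 0.285), Psmb2 by -0.10 (0.239) and Psmb4 by 0.03 (0.768). Psmb2 passed without SAP 15 (-0.16, adjusted p = 0.0191). Psmb11, the beta subunit of the thymoproteasome, was listed at 0 in 11 libraries and at 0.01 TPM in SAP 14.

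Scaling each library to its summed core TPM, an alternative chosen after the data were seen, put the members on their own common level. Of all genes 25.3% were then higher and 19.7% lower. Of the members 8 were higher and 5 lower: Psmb5 (0.16, adjusted p = 0.0210) and Psmb6 (0.19, 0.00533) of the core and Psmc2, Psmc6, Psmd7, Psmd8, Psmd10 and Psmd13 of the regulatory particle were higher. Psma3 (-0.38, adjusted p = 0.00125), Psmb3 (-0.14, 0.0266), Psmb7 (-0.29, 3.14e-04), Psmd5 (-0.49, 0.00236) and Psmd14 (-0.17, 0.0443) were lower. Psma1, Psma2, Psmc1 and Psmd3, lower as deposited, were not past the threshold on this scale. Core subunits enter their own scale here, so a fall of one raises the others.

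**Figure D4:**
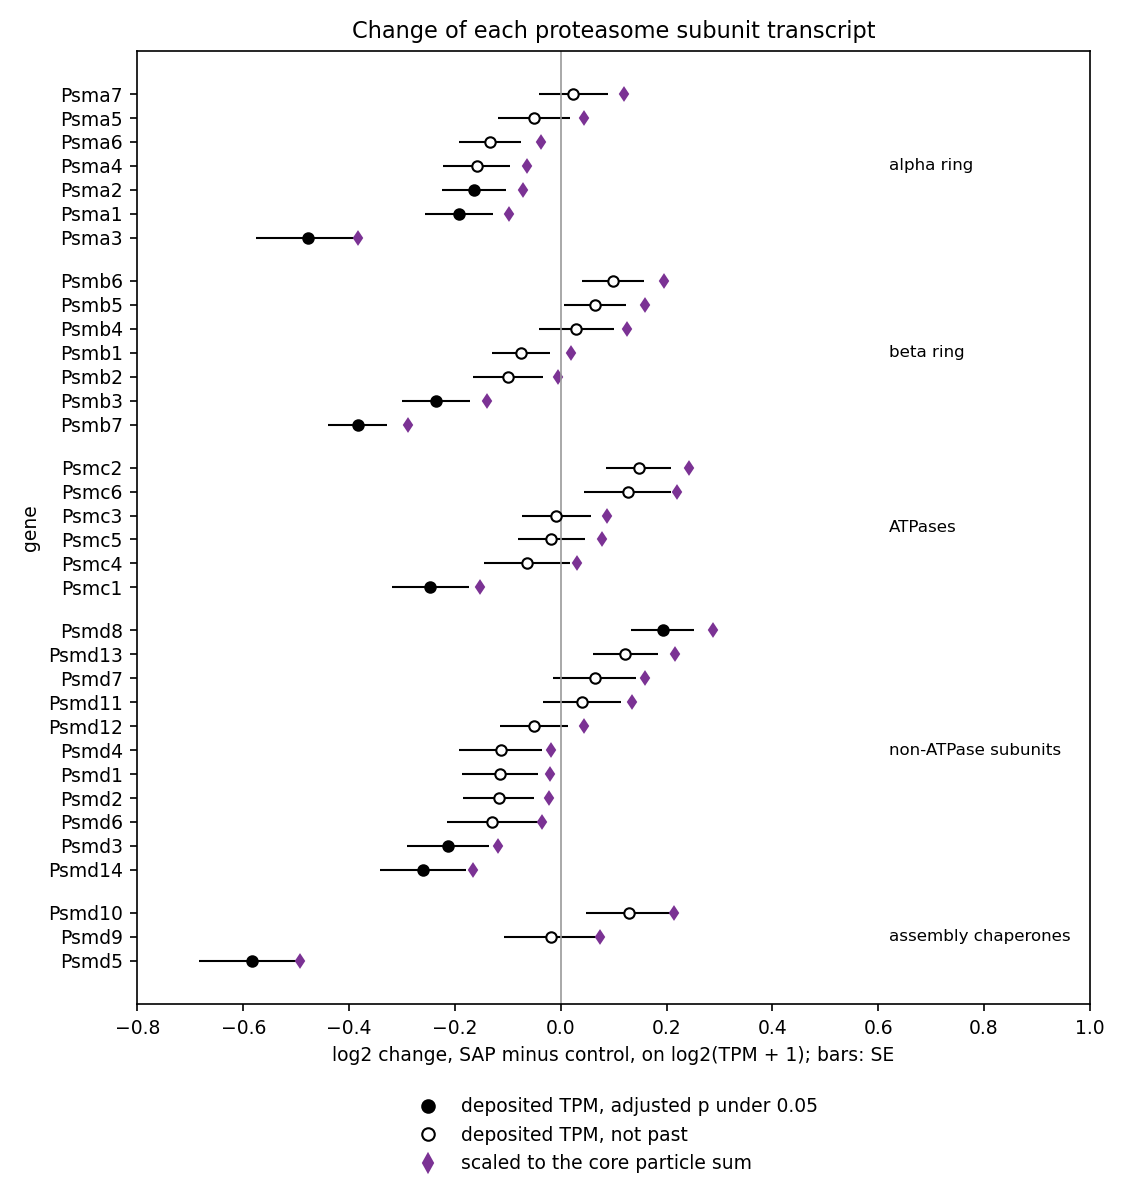
Log2 difference of each tested member (SAP minus control, horizontal axis), as deposited with SE bars (filled where the adjusted p is under 0.05) and after scaling to the core particle sum (diamonds). As deposited 9 members are lower and 1 higher, while on the core scale 5 are lower and 8 higher.

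In the regulatory particle the ring of ATPases held 1 lower member of 6, against 25.0% of all genes tested. Psmc1, an ATPase that docks on the alpha ring (chromosome 12, 100110154 to 100123405, plus strand) ranged from 120.6 to 128 TPM in controls (median 122) and from 86.0 to 118 TPM in SAP (median 107). The groups did not overlap, SAP 14 being lowest and SAP 15 highest in SAP. Psmc1 fell by 0.25 ± 0.07 (adjusted p = 0.0140), but was positive at 0.07 with quantile normalization and at 0.08 outside the acute-phase total. Psmc2 and Psmc6 differed by 0.15 (adjusted p = 0.0686) and 0.13 (0.233), and all 6 SAP values of Psmc2 lay above the control median. Without SAP 14 both passed, at 0.17 (adjusted p = 0.0269) and 0.19 (0.0185). Psmc2 was higher past the threshold with TMM-like scaling (0.20, adjusted p = 0.0395), with quantile normalization (0.41) and outside the acute-phase total (0.47). Psmc2 took 4.87% to 5.26% of the regulatory TPM in controls and 5.73% to 5.99% in SAP, without overlap, and Psmc1 7.90% to 8.53% and 6.38% to 7.44%. Psmc3, Psmc4 and Psmc5 lay between -0.06 and -0.01.

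Of the 11 non-ATPase subunits 2 were lower and 1 higher, against 25.0% and 19.5% of all genes tested. Psmd14, the metalloprotease that cuts ubiquitin chains from substrates (chromosome 2, 61711694 to 61800376, plus strand), ranged from 48.9 to 55.2 TPM in controls (median 53.6) and from 37.1 to 52.8 TPM in SAP (median 43.7). SAP 11 and SAP 15 overlapped the controls, and the other 4 SAP libraries lay below them. Psmd14 fell by 0.26 ± 0.08 (adjusted p = 0.0197), and was not past the threshold without SAP 14 and control 5 (-0.20, adjusted p = 0.0563) or with quantile normalization (-0.07, 0.385), and stood at 0.06 outside the acute-phase total. Psmd3, a scaffold subunit of the lid, fell by 0.21 (adjusted p = 0.0384), from a median of 89.5 TPM (82.5 to 96.3) to 76.5 TPM (63.5 to 91.1). That call was lost without any one library other than control 5, SAP 12 or SAP 15 (adjusted p of 0.0511 to 0.0824), and Psmd3 was positive at 0.05 with quantile normalization.

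Psmd8, a lid subunit (chromosome 7, 29174188 to 29180701, minus strand), was the only member higher past the threshold as deposited. It ranged from 134 to 151 TPM in controls (median 147) and from 154 to 186 TPM in SAP (median 162). The groups did not overlap, with SAP 14 at the top. Psmd8 rose by 0.19 ± 0.06 (adjusted p = 0.0190). The difference was positive under every scaling, up to 0.55 with quantile normalization, but not past the threshold with TMM-like scaling (adjusted p = 0.0552), with the Xist split as a term (0.0704) or in the 7 high Xist libraries alone (0.12, 0.238). Of the remaining subunits Psmd13 differed by 0.12 (adjusted p = 0.122), with all 6 SAP values above the control median. As shares of the regulatory TPM, Psmd8 took 8.81% to 9.89% in controls and 10.2% to 13.8% in SAP, Psmd13 3.73% to 3.91% and 3.92% to 4.75%, and Psmd3 5.53% to 6.23% and 4.71% to 5.32%. These 3 shares did not overlap between the groups, and neither did those of Psmc1 and Psmc2, among 20 tested regulatory members. They too are tied parts of 1 sum, without a figure over all genes beside them. Psmd7 and Psmd11 differed by 0.06 and 0.04. Psmd1, Psmd2, Psmd4, Psmd6 and Psmd12 lay between -0.13 and -0.05, none past the threshold, though Psmd2 passed without SAP 15 (-0.16, adjusted p = 0.0472). Adrm1, like Psmd4 a ubiquitin receptor of the particle but outside the symbol rule, differed by 0.07 (adjusted p = 0.530), and the small subunit Sem1 differed by -0.14 (0.0726).

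The symbol rule also takes in Psmd5, Psmd9 and Psmd10, which are chaperones that build the base of the regulatory particle and leave it when it is finished. Psmd5 (chromosome 2, 34849734 to 34874968, minus strand) ranged from 17.7 to 26.6 TPM in controls (median 24.5) and from 13.4 to 17.0 TPM in SAP (median 15.8). Control 7 at 17.7 TPM stood apart from the other controls, at 23.9 TPM or more, but was above every SAP library. Psmd5 fell by 0.58 ± 0.10 (adjusted p = 3.25e-04). It was the only member lower past the threshold under all 4 scalings and on the core scale, at -0.27 (adjusted p = 0.0209) outside the acute-phase total. Psmd9 and Psmd10 differed by -0.02 (adjusted p = 0.892) and 0.13 (0.219). Psmd5 overlaps Cutal, Psmb7 overlaps Nek6 and Psmd9 overlaps Hpd, each on the other strand. In all, 8 members overlap another coding gene in GENCODE M21, 6 of them only on the other strand (the exceptions are Psma2 and Psmd1). Whether the counting used strand is not stated in the labels or the files, so reads of such pairs may be mixed. The 5 Psm pseudogene rows reached at most 0.22 TPM.

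In 5 of the 34 tested members the groups did not overlap, namely Psma3, Psmb7, Psmc1 and Psmd5 (SAP lower) and Psmd8 (SAP higher). Over all genes tested 15.1% were lower and 10.5% higher without overlap.

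Summed over its subunits the core particle gave 2233 to 2409 TPM in controls (2329 ± 74.1, SD, n = 6) and 2046 to 2484 TPM in SAP (2183 ± 158). The regulatory particle gave 1491 to 1615 TPM (1536 ± 44.1) and 1349 to 1710.5 TPM (1498 ± 124). Both sums overlapped between the groups, and in both SAP 15 was above every control. On a scale where the genes outside the acute-phase list sum to the same total in each library, the order was the other way: 2302 to 2496 in controls and 2638 to 3082 in SAP for the core, and 1538 to 1665 and 1838 to 2122 for the regulatory particle, both without overlap. The ratio of regulatory to core TPM was 0.632 to 0.685 in controls and 0.641 to 0.720 in SAP, with overlap. As deposited, SAP 15 was the highest SAP library for 29 of the 34 tested members, SAP 14 the lowest for 21 and SAP 13 for 11. Among controls, control 8 was highest for 13 and control 4 lowest for 11. Acute-phase genes took 29.97% of SAP 14 and 19.0% of SAP 15. Outside them SAP 14 gave 3018 for the core and 1935 for the regulatory particle, so it was lowest for neither. SAP 15 stayed the highest there for both, at 3082 and 2122. SAP 12 had the smallest acute-phase share of the SAP libraries, 18.5%, and was highest for neither particle. The part of the acute-phase share in this order was not tested. How often each library was highest or lowest over all genes is not given here. The median coefficient of variation was 4.42% over members in controls and 9.73% in SAP. It was not computed over all genes, so the wider spread in SAP is not shown to be particular to the members. Without SAP 15 the core had 8 lower members, and 24.7% of all genes were lower.

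**Figure D5:**
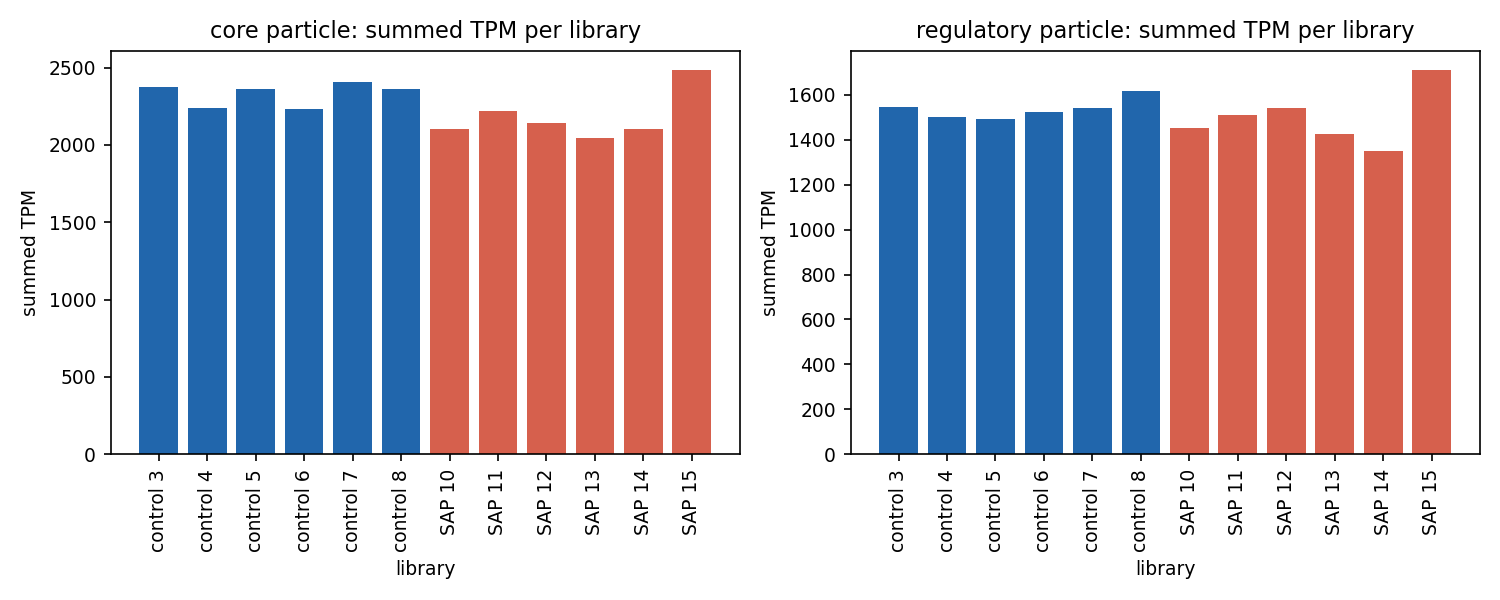
Summed TPM of the 16 core members (left) and of the 20 regulatory members (right) in each library, with 1 bar per library. SAP 15 stands above every control in both panels and the other 5 SAP core sums, at 2046 to 2218 TPM, lie below every control, an order that turns outside the acute-phase total.

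The inducible counterparts of the catalytic subunits did not move as 1 group. Psmb8, which takes the place of Psmb5, ranged from 33.7 to 49.5 TPM in controls (median 41.8) and from 73.6 to 109 TPM in SAP (median 87.0), without overlap. Psmb8 rose by 1.10 ± 0.12 (adjusted p = 7.74e-06), and it was higher past the threshold under each scaling. The ratio of Psmb5 to Psmb8 was 3.15 to 4.59 in controls and 1.62 to 2.30 in SAP, again without overlap. Psmb9, the counterpart of Psmb6, differed by -0.30 (adjusted p = 0.133), and Psmb10, that of Psmb7, by -0.07 (0.673). The ratio of Psmb6 to Psmb9 was 11.3 to 17.9 and 15.5 to 28.3, and that of Psmb7 to Psmb10 was 5.54 to 6.62 and 3.99 to 5.86, both overlapping.

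Immune cells express the inducible subunits, and their markers are given here for that reason. The neutrophil list summed to 5.30 to 20.2 TPM in controls and 37.0 to 112 TPM in SAP, with 3 of 4 tested markers higher and 7 others at or below 1.65 TPM. The monocyte list summed to 42.1 to 62.5 and 60.4 to 95.9 TPM (3 of 4 tested higher, 1 lower), and the general leukocyte list to 16.4 to 22.2 and 16.4 to 42.1 TPM (2 of 5 higher). Lymphocyte markers summed to 1.84 to 3.75 and 2 to 6.48 TPM, and Kupffer cell markers to 231 to 343 and 204 to 457 TPM (1 of 9 higher, 3 lower). Of 5 tested hepatocyte markers 3, among them albumin, were lower and 1 was higher. Of all genes tested 25.0% were lower and 19.5% higher. Endothelial markers summed to 81.3 to 118 and 87.9 to 122 TPM (2 of 6 higher), stellate cell markers to 30.1 to 41.9 and 18.7 to 34.9 TPM (3 of 6 higher, 1 lower), and cholangiocyte markers to 14.5 to 29.7 and 15.9 to 41.0 TPM (0 of 2 past the threshold). The hepatocyte sums were lower and the neutrophil sums higher in SAP without overlap, and the sums of the other lists overlapped. Pancreatic acinar markers summed to at most 11.8 TPM in controls and 1.23 TPM in SAP, with Prss1 at 0. The part of these cells in the differences of proteasome transcripts was not tested.

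Factors that build the core particle were mostly lower as deposited, with 4 of 5 lower and 0 higher, but 0 lower and 1 higher outside the acute-phase total. Of all genes tested 25.0% were lower and 19.5% higher as deposited, and 12.5% and 47.6% outside the acute-phase total. Psmg1, part of a dimer that starts the alpha ring, went from 26.3 to 32.7 TPM (median 28.9) to 19.2 to 23.7 TPM (median 22.5), a fall of 0.41 ± 0.08 (adjusted p = 6.42e-04). Its partner Psmg2 fell by 0.31 (adjusted p = 0.00758) and Psmg3, of a later dimer, by 0.40 (0.00275). Outside the acute-phase total these 3 stood at -0.09, 0.00 and -0.08. Pomp, which matures the beta ring, fell by 0.20 (adjusted p = 0.0433), turning to 0.18 with quantile normalization, and Psmg4 differed by 0.03 (0.820).

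Of 5 activators and inhibitors of the core 1 was lower, against 25.0% of all genes tested. Psmf1, the inhibitor PI31, fell from a median of 17.1 TPM (13.5 to 19.6) to 11.1 TPM (6.42 to 13.4), without overlap, by 0.61 ± 0.15 (adjusted p = 0.00375), and was lower past the threshold under each scaling. The activator genes Psme4 and Psme3 differed by 0.17 (adjusted p = 0.0885, and 0.0176 without SAP 14) and -0.12 (0.174), and the interferon-induced Psme1 and Psme2 by -0.05 and 0.01. Among 10 tested proteins that bind the proteasome, 1 was higher and 2 were lower, against 19.5% and 25.0% of all genes tested. Usp14, a deubiquitinase docked on the regulatory particle, fell by 0.65 (adjusted p = 1.56e-04) and the ubiquitin ligase Ube3c by 0.42 (0.00144), both also negative under every scaling. Zfand2a, a stress-induced binding partner, rose by 0.70 (adjusted p = 4.99e-04).

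Nfe2l1, the factor that induces proteasome genes when degradation is short, rose from a median of 55.4 TPM (39.4 to 59.7) to 69.9 TPM (53.5 to 81.5), by 0.37 ± 0.12 (adjusted p = 0.0198). The groups overlapped, and the difference was positive under each scaling. Of the 6 genes on this axis 3 were higher and 1 lower, against 19.5% and 25.0% of all genes tested. Sel1l and Syvn1, which move Nfe2l1 and other proteins out of the endoplasmic reticulum, rose by 1.17 (adjusted p = 4.98e-06) and 1.66 (7.73e-05) without overlap between the groups. The related factor Nfe2l2 fell by 0.38 (adjusted p = 0.0230), a call lost with the Xist split as a term (-0.32) and outside the acute-phase total (-0.06, adjusted p = 0.644). Ddi2 and Ngly1, which cut and deglycosylate Nfe2l1, differed by 0.24 (adjusted p = 0.176) and -0.01 (0.962).

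Upstream of the proteasome the ubiquitin genes went in both directions. Ubb, a polyubiquitin gene, rose by 0.27 (adjusted p = 0.00720) and Rps27a, a ubiquitin fused to a ribosomal protein, by 0.63 (1.99e-04). These genes share ubiquitin-coding sequence, and neither labels nor files say how reads common to them were divided, so their single levels are uncertain. Of all 6 ubiquitin and E1 genes tested 3 were higher and 3 lower as deposited, and 4 higher and 1 lower outside the acute-phase total. For all genes tested the shares were 19.5% higher and 25.0% lower, and 47.6% and 12.5% outside the acute-phase total. Among 11 tested shuttles and partners of the Vcp segregase 2 were higher and 3 lower as deposited, which is near the shares of all genes. The shuttle Ubqln2 rose by 0.65 (adjusted p = 8.74e-05) and the Vcp cofactor Ufd1 by 0.45 (3.14e-04), and both were positive under each scaling. Vcp itself differed by -0.01 (adjusted p = 0.916).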

How the data were processed

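Liver RNA was measured by RNA-seq in 6 control and 6 SAP libraries. The deposited values were read as TPM, in a table of 55487 rows and 12 library columns. The unit is named in no header or label and was inferred from the values, which sum to between 993412 and 995793 per library, so the depth is unknown and counting intervals could not be given. The submitters' processing notes name edgeR, without a version or role. For the aligner, build, annotation and strand setting: not given in the sources used here.

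Genes reaching 1 TPM in 6 or more libraries were fitted on log2(TPM + 1) with limma 3.58.1 (trend in the empirical Bayes step, R 4.3.3), with the group as the only term. P-values are two-sided and Benjamini-Hochberg adjusted over 11344 genes at 0.05. Log2 differences understate the change of low genes. All members are accounted for. Values are given in full for the catalytic subunits, the extremes of each particle and Psmd14, and others are named where past the threshold or among the 3 smallest p-values of a list. The members and lists were chosen with earlier results of these data known. The pipeline was tested on simulated data.

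Alternatives were 3 scalings (TMM-like factors, quantile normalization, and the total outside 32 acute-phase rows), 2 filters, a pseudocount of 0.1, limma without trend or robust, the highest mean for repeated symbols, and leaving out each library. After the data were seen, 4 were added: the Xist split at 30 TPM as a term, high Xist libraries alone, leaving out SAP 14 and control 5, and scaling to the core sum. The ratio of Psmb7 to Psmb6, that of the most to the least abundant core subunit, and the shares of summed TPM were not planned either. Promoters are RefSeq on GRCm38.p6, positions GENCODE M21 on GRCm38. Figures used matplotlib 3.10.9. Some genes of the pathway lists are not reported here.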

Additional observations from a re-analysis of the deposited data

Results flagged for a closer look

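Each group of 6 libraries was searched for a library whose gap to its nearest neighbour, as a share of the group's range, exceeded Dixon's critical value for 6 values. Of 80 such groups 8 were marked, and chance marks about 1 in 20. SAP 15 stood above the other SAP libraries for Psmb2 (141.55 TPM against 108.93 to 113.89), Psmb3 (256.59 against 205.37 to 212.51), Psmc5 (123.8 against 97.32 to 106.69) and Psmd13 (73.78 against 58.92 to 64.45). Without SAP 15 the differences were -0.16 for Psmb2 (limma adjusted p = 0.0191), -0.28 for Psmb3 (9.11e-04), -0.07 for Psmc5 (0.331) and 0.08 for Psmd13 (0.249), so that Psmb2 passed the threshold there. Control 8 stood above the other controls for Psmc5 (111.14 TPM against 103.98 to 106.41) and Psmd6 (87.47 against 72.96 to 78.39). Control 6 was low for Psma7 (214.67 TPM against 224.83 to 230.62). Control 7 was low for Psmd5 (17.74 TPM against 23.89 to 26.59), and without it Psmd5 fell by 0.66 (adjusted p = 3.69e-05).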

How the results depend on the processing

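Scaling decided the direction of most members. With quantile normalization 19 members changed sign, to Psma1 0.12, Psma4 0.19, Psma5 0.20, Psma6 0.21, Psmb1 0.25, Psmb2 0.22, Psmb3 0.14, Psmb7 0.010, Psmc1 0.071, Psmc3 0.33, Psmc4 0.23, Psmc5 0.28, Psmd1 0.086, Psmd2 0.17, Psmd3 0.051, Psmd4 0.21, Psmd6 0.11, Psmd9 0.064 and Psmd12 0.16 (log2, SAP minus control). Outside the acute-phase total 20 members did, to Psma1 0.13, Psma2 0.16, Psma4 0.17, Psma5 0.27, Psma6 0.19, Psmb1 0.25, Psmb2 0.23, Psmb3 0.094, Psmc1 0.080, Psmc3 0.32, Psmc4 0.26, Psmc5 0.31, Psmd1 0.21, Psmd2 0.21, Psmd3 0.11, Psmd4 0.21, Psmd6 0.20, Psmd9 0.30, Psmd12 0.27 and Psmd14 0.063, as did Psme3 (0.20), Psmg2 (0.0015) and Sem1 (0.18). Core counts were then 10 higher and 1 lower (quantile) and 11 and 0 (outside the acute-phase total), and regulatory counts 12 and 1, and 16 and 1. Medians were 0.21 (core) and 0.19 (regulatory) with quantile normalization and 0.21 and 0.28 outside the acute-phase total, where 5398 of all genes were higher and 1420 lower, against 2950 and 2590 with quantile normalization. The log2 ratio of mean sums, -0.09 (core) and -0.04 (regulatory) as deposited, became 0.26 and 0.24 with quantile normalization and 0.24 and 0.29 outside the acute-phase total. TMM-like scaling left 2 lower core members (of all genes 2720 were higher and 2738 lower), and 5 members not past the threshold changed sign, all to under 0.05.

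With the Xist split as a term 0 of 20 regulatory members were higher, against 2324 of 11344 genes tested. In the high Xist libraries alone, with only 2 SAP libraries, 1905 of 10668 genes were higher and 1801 lower. There 3 core members were lower and 0 regulatory members higher. Without SAP 14 and control 5, 3 of 20 regulatory members were higher, against 2215 of 11127 genes tested. Leaving out 1 library at a time gave 1894 to 2390 higher and 2497 to 3042 lower genes, 3 to 8 lower and 0 higher core members (3 without control 8, SAP 10 or SAP 13, and 8 without SAP 15), and 3 to 5 lower and 1 to 3 higher regulatory members (3 higher without SAP 14). Medians ranged from -0.16 to -0.09 (core) and -0.07 to -0.01 (regulatory), and log2 ratios of sums from -0.13 to -0.08 and from -0.08 to -0.01. The causes were not tested. A mean of at least 5 TPM, a pseudocount of 0.1 and a robust empirical Bayes step changed no member's call or sign. Taking the highest mean for repeated symbols could not change a member's values, because no member symbol was on more than 1 row. Without a filter 1 call was lost (3 lower regulatory members), and without the trend 2 were (4 lower core and 3 lower regulatory members). No paired analysis was possible because the control numbers (3 to 8) and SAP numbers (10 to 15) are not shared. DESeq2, meant for counts, was not run on TPM.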
